A study of Drosophila melanogaster with 12 samples.

Results

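The vacuolar ATPase genes of Drosophila were described in RNA-seq libraries of Kc167 cells, together with ATP6AP2 and both Rabconnectins. The members were every feature of the count table whose gene name starts with Vha, plus ATP6AP2, Rbcn-3A and Rbcn-3B, which gave 35 of 23882 features. Of these, 13 encode subunits of the V1 sector, 18 subunits of the Vo sector, 2 accessory proteins of Vo and 2 assembly factors. Rbcn-3B had been added because its counts were lower in dGcn5-depleted than in nej-labelled libraries. Its values are therefore given as a description, and a test is given for it only between the control and the Elp3-labelled libraries.

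Kc167 is a Drosophila melanogaster line of embryonic origin with hemocyte features. All cells were grown in CCM3 medium and transfected for 5 days with dsRNA, double-stranded RNA that triggers RNA interference against the matching mRNA, before total RNA was extracted and stranded polyA libraries were made. The 4 groups of 3 libraries each received dsRNA against yellow, a pigmentation gene that served as the control, against the histone acetyltransferase dGcn5, against Elp3, or against nej, the fly homologue of CBP. RNA-seq of the dGcn5-depleted and control cells served to ask whether dGcn5 depletion changed the expression of DNA repair and cell cycle genes. A single cell line was used, the depletion was partial, and no label says that the replicates were separate cultures, so p-values measure only the spread between these libraries.

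Library totals ranged from 19102102 to 23198850 counts. The Gcn5 gene had 28.7, 43.2 and 48.5 CPM (counts relative to the TMM-adjusted library total) in the dGcn5-depleted libraries against 128 to 150 in the controls. For Elp3 no fall was seen, since its gene had 1900 to 4126 CPM in the libraries labelled Elp3 against 45.9 to 58.8 in the controls. The nej gene likewise had 309 to 3245 CPM in the libraries labelled nej against 46.8 to 205 in the controls. What these high counts came from was not tested. The paper measured Elp3 after its knockdown in Kc cells by RT-qPCR, which is separate from these libraries. Both groups are therefore called by their labels, and no direction in them is credited to a loss of the named gene. All 10 hemocyte-like markers passed the filter on low counts, with Hml at a mean of 164 RPKM (CPM per kilobase of exon). Their summed level of 300 to 1859 RPKM overlapped between the groups. Of 4 testis markers, dj and ProtA had no counts and aly at most 14, whereas Mst87F passed the filter at a mean of 1.30 RPKM. Some markers of other cell types were expressed too, with means of 40.0 RPKM for Mlc2, 23.7 for bam and 18.0 for PPO3. Libraries also differed in how their counts moved with exon length. For each doubling of length the slope of the log2 deviation from the mean ran from -0.31 in control replicate 3 and in Elp3-labelled replicate 1 to 0.20 in nej-labelled replicate 2, and it was negative in 5 of the 12 libraries.

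The vacuolar ATPase (V-ATPase) is a rotary proton pump that acidifies lysosomes, endosomes and secretory vesicles. Its cytosolic V1 sector hydrolyses ATP, and the rotation is passed through a central stalk to the membrane-embedded Vo sector, where a ring of proteolipid subunits carries the protons. The sectors come apart and rejoin reversibly, and Rabconnectins, homologues of subunits of the yeast RAVE complex, assist the assembly. Many subunits have several genes in flies, some of them with expression largely limited to single tissues such as the testis. Assembled pumps also serve as a platform on which nutrient signals reach the TOR kinase at the lysosome.

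Kc cells expressed at least 1 gene for each of the 8 V1 subunits and each of the 5 Vo subunits that the table lists. Of the 35 members, 25 passed the filter over the 12 libraries, and 20 of these had a mean over 5 RPKM. Vha16-1, the c proteolipid that forms the ring, was the highest, with a mean of 532 RPKM over the 12 libraries and a range of 383 to 656. It lay at percentile 98.6 of the mean levels of all features that passed. Together the members took between 0.511% and 0.730% of the counts of a library. The plot of levels by gene shows how far the main isoforms stood from the others.

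**Figure D1:**
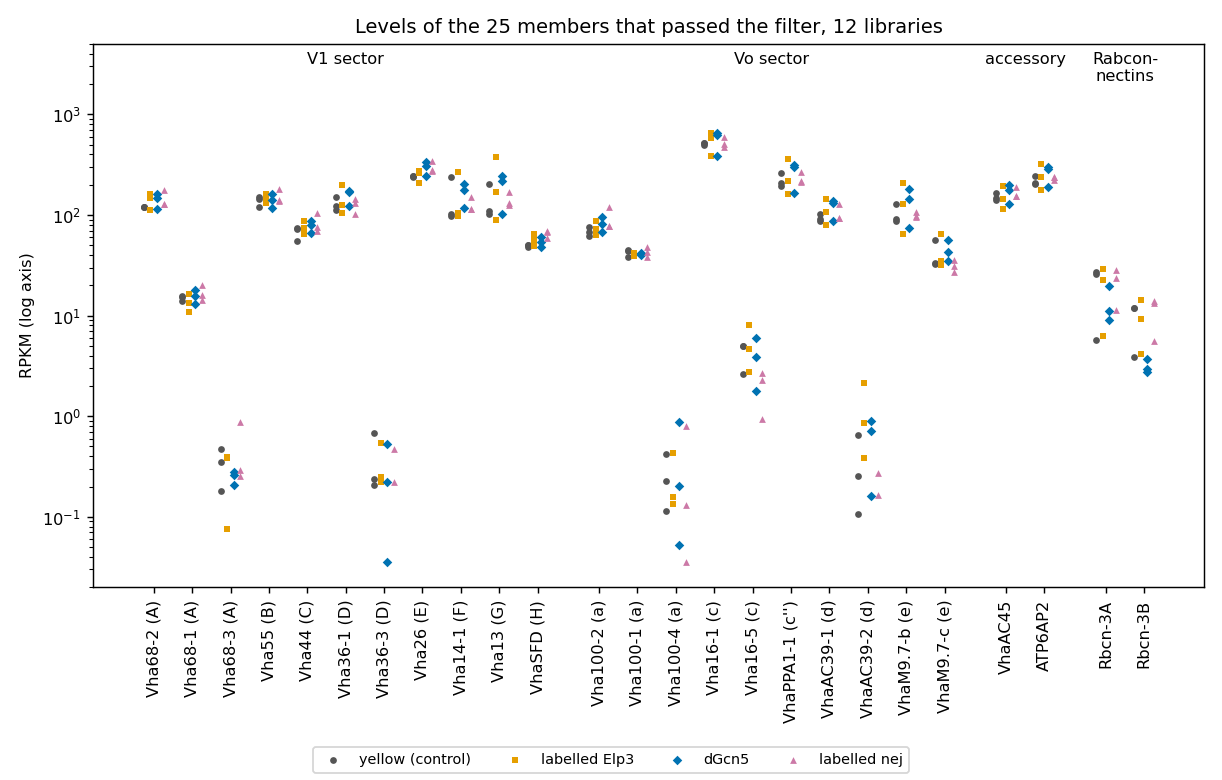
Level in RPKM (log axis) of the 25 members that passed the filter, 1 point per library (3 libraries in each of 4 groups), ordered by sector and subunit letter; values of 0 are not drawn. Vha16-1 lies highest, between 383 and 656 RPKM, and 5 genes lie at a mean of under 5 RPKM.

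In the catalytic V1 head, Vha68-2, which encodes subunit A, had a mean of 136 RPKM (111 to 177 over the libraries). Vha55, the only gene for subunit B, lay at almost the same level with a mean of 143 RPKM (117 to 179). Subunits A and B alternate in the hexamer that hydrolyses ATP. Vha68-1, another gene for A, had a mean of 15.2 RPKM, and Vha68-3 reached only 0.335 RPKM.

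The stalks of V1 were expressed over a wider range. Vha26, encoding the peripheral stalk subunit E, was the highest V1 gene with a mean of 272 RPKM (209 to 344). Its partner in the stalk, Vha13 for subunit G, had a mean of 170 RPKM but varied from 89.95 to 377. Central stalk genes were Vha36-1 for subunit D, with a mean of 138 RPKM (102 to 196), and Vha14-1 for subunit F, with a mean of 148 RPKM (96.9 to 268). The means of these central stalk genes thus lay close to those of subunits A and B in level per length. For Vha14-1 the median was lower, at 116 RPKM. Vha44, for subunit C, which clamps V1 to Vo, had a mean of 75.8 RPKM. VhaSFD, for the regulatory subunit H, was lower still at 56.4 RPKM with a range of only 47.5 to 69.2. Vha44 shares 148 bp of exon with Hmgs on the other strand, and since the strand setting of the counting is not given in the sources used here, its level is less certain.

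Among the Vo subunits, Vha16-1 was followed by VhaPPA1-1, the c'' proteolipid, at a mean of 239 RPKM (160 to 358). VhaAC39-1, encoding subunit d that joins the ring to the central stalk, had a mean of 107 RPKM. Subunit a, which forms the proton path beside the ring and directs the pump to its membrane, came from a pair of genes. Vha100-2 had a mean of 78.9 RPKM and Vha100-1 a mean of 41.6 RPKM. The small subunit e was likewise split, with VhaM9.7-b at 117 RPKM and VhaM9.7-c at 40.1 RPKM. The accessory proteins were abundant, with ATP6AP2, the fly homologue of the prorenin receptor, at 240 RPKM and VhaAC45 at 159 RPKM. Summed over their genes, V1 and Vo had almost equal levels, with a mean of 1156 RPKM (875 to 1546) for V1 and 1161 RPKM (826 to 1549) for Vo. Their ratio within a library stayed between 0.904 and 1.09.

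Where a subunit has several genes, 1 gene dominated in most cases, and it was the same gene in all 12 libraries. Vha68-2 supplied 86.0% to 92.9% of the summed RPKM of subunit A and Vha68-1 6.82% to 13.5%. For subunit D, Vha36-1 supplied at least 99.5%, for F Vha14-1 at least 99.9%, and for d VhaAC39-1 at least 98.5%. The proteolipids behaved alike, since Vha16-1 supplied 98.8% to 99.8% of c. Subunits a and e were the exceptions. Vha100-2 held 59.8% to 71.6% of subunit a and Vha100-1 28.3% to 40.0%, whereas VhaM9.7-b held 66.8% to 78.5% of subunit e and VhaM9.7-c 21.5% to 33.0%. The mean share of Vha100-2 was 61.5% in the control, 64.6% in the Elp3-labelled, 66.1% in the dGcn5-depleted and 67.3% in the nej-labelled libraries. That order was set after the means were seen, and library ranges overlapped between neighbours in it. The control (59.8% to 63.0%) and nej-labelled ranges (64.2% to 71.6%) did not overlap. How often shares of other genes separate in this way is not given, and the shares were not tested, so no shift is read from them. Shares are compositional, so Vha100-1 ran the opposite way.

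The silent members were paralogues of expressed genes. Vha100-3, Vha16-2, Vha16-3 and VhaM9.7-d had 0 counts in all 12 libraries, which allows up to 3 counts, or 0.129 to 0.157 CPM, per library. VhaM9.7-a, Vha100-5, Vha36-2, Vha14-2, Vha16-4 and VhaPPA1-2 had at most 8 counts in any library. Such floors cover counting error only. The filter was also passed by 5 genes at a mean of under 5 RPKM, namely Vha16-5, VhaAC39-2, Vha68-3, Vha36-3 and Vha100-4. Vha16-5 was the highest of these with 14 to 109 counts.

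Some silent or weak genes lie beside strong ones in the genome (BDGP6.32, coordinates of the table). Vha68-2 (2L, 12974322 to 12978607, plus strand) is followed after 178 bp by Vha68-3 (2L, 12978786 to 12981293, plus strand), whose mean RPKM was 407-fold lower. Vha68-1 (2L, 13000770 to 13004107, minus strand) lies 19476 bp further on. Subunit a has a similar pair. Vha100-4 (3R, 18386841 to 18389805, minus strand) ends 517 bp from Vha100-2 (3R, 18390323 to 18399169, minus strand) and was 265-fold lower. VhaPPA1-2 lies 2052 bp from VhaPPA1-1, and its counts were at most 1 per library. Vha16-2 and Vha16-3, 985 bp apart, were both at 0. No member shares exon sequence with another gene on its own strand, and 6 overlap a gene on the other strand, among them Vha100-4 by 47 bp with cona.

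The spread of the members over the libraries followed their exon length. Among the 20 members above 5 RPKM, the 5 with the shortest exons (659 to 1216 bp) had coefficients of variation (CV, the SD over the mean of the 12 libraries) of 21.4% to 48.4%. The 13 of intermediate length had 7.09% to 25.7%, and both Rabconnectins, the longest members, had 49.2% and 57.8%. The 5 short members and Rbcn-3A deviated in opposite directions. The 4 libraries with the most negative length slopes were control replicate 3, Elp3-labelled replicate 1 and dGcn5-depleted replicates 1 and 2. They were the 4 highest libraries for all 5 short members and the 4 lowest for Rbcn-3A, but not the 4 lowest for Rbcn-3B.

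Vha14-1, at 659 bp the shortest expressed member, shows the pattern. It had 64.9, 68.0 and 157 CPM in the controls, 177, 69.6 and 63.9 in the Elp3-labelled, 116, 133 and 76.5 in the dGcn5-depleted and 76.1, 74.9 and 98.4 in the nej-labelled libraries. Control replicate 3 and Elp3-labelled replicate 1 stood apart from their own groups by more than any group differed from another. Once the trend with length was taken out of each library, the CV of Vha14-1 was 13.0% in place of 39.7%, and that of VhaM9.7-c was 7.56% in place of 30.3%. It became lower for 5 of 5 short members, for 7 of 13 intermediate ones and for both Rabconnectins. Vha16-1 went the other way, from 17.4% to 23.2%. What set the length trend in a library was not tested.

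**Figure D2:**
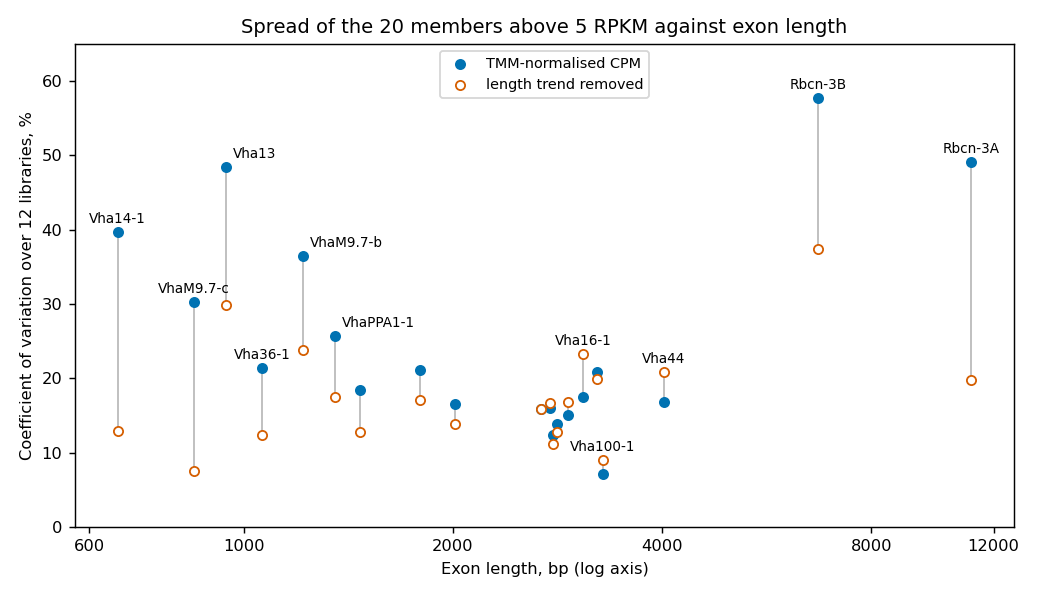
Coefficient of variation over the 12 libraries (%) against exon length in bp (log axis) for the 20 members above 5 RPKM, before (filled) and after (open) removal of each library's trend with exon length. Vha13 (48.4%), Rbcn-3A (49.2%) and Rbcn-3B (57.8%) had the widest spread, and Vha100-1 (7.09%) the narrowest.

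Vha100-1 was the steadiest member. This isoform of subunit a, which carries vesicle fusion and acidification functions in fly neurons, had 148, 145 and 125 CPM in the controls and 129, 139 and 127 in the Elp3-labelled libraries. It had 134, 137 and 132 CPM after dGcn5 depletion and 156, 142 and 127 in the nej-labelled libraries. All 4 groups overlapped, and the highest library was only 1.25 times the lowest. Other members usually peaked in 1 of 2 libraries, since Elp3-labelled replicate 1 was the highest for 9 of the 20 and nej-labelled replicate 1 for 7. Elp3-labelled replicate 3 was the lowest for 9.

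Rbcn-3A, the homologue of mammalian DMXL2 (X, 6240745 to 6255487, minus strand, 11139 bp of exon), had a mean of 18.3 RPKM and Rbcn-3B, the homologue of WDR7 (X, 1908920 to 1916825, plus strand, 6716 bp of exon), a mean of 8.14 RPKM. Both were thus well under the main subunits in level per length. Their products act together in assembling the pump, and in flies loss of either impairs acidification and Notch signalling.

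For Rbcn-3B the control libraries had 80.0, 79.5 and 26.1 CPM, and the dGcn5-depleted libraries 19.97, 18.5 and 24.95 CPM. The Elp3-labelled libraries had 27.6, 95.03 and 62.4 CPM, and the nej-labelled libraries 89.6, 94.5 and 37.9 CPM. All 3 dGcn5-depleted libraries lay below all 9 others, although control replicate 3 and Elp3-labelled replicate 1 came within a few CPM of them. The dGcn5 mean was 34.2% of the control mean, 34.3% of the Elp3-labelled and 28.6% of the nej-labelled mean. With the length trend taken out, the dGcn5-depleted libraries had 22.4 to 25.5 CPM and the other 9 had 40.8 to 73.9. The log2 differences were then smaller, -1.22 in place of -1.54 against control, -1.22 in place of -1.56 against Elp3-labelled and -1.27 in place of -1.81 against nej-labelled libraries. The difference from the nej-labelled libraries is what chose the gene, and no test is given for these values.

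Rbcn-3A did not separate the groups. It had 288, 301 and 63.9 CPM in the controls, 70.3, 324 and 250.4 in the Elp3-labelled, 123, 100.5 and 218 in the dGcn5-depleted and 315, 264 and 125 in the nej-labelled libraries. Within the groups its CV ran from 41.8% to 61.2%. The log2 fold change after dGcn5 depletion was -0.56 against control (95% confidence interval, CI, -1.87 to 0.75, edgeR adjusted p = 0.984), and all 3 depleted libraries lay between control replicate 3 and the other controls. Against the nej-labelled libraries it was -0.67 (CI -1.63 to 0.28, edgeR adjusted p = 0.629) and against the Elp3-labelled ones -0.57 (CI -1.89 to 0.75, adjusted p = 0.9999). After removal of the length trend its libraries ranged from 154 to 195 CPM in dGcn5-depleted cells and from 125 to 226 in the other groups. All 3 intervals include 0.

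**Figure D3:**
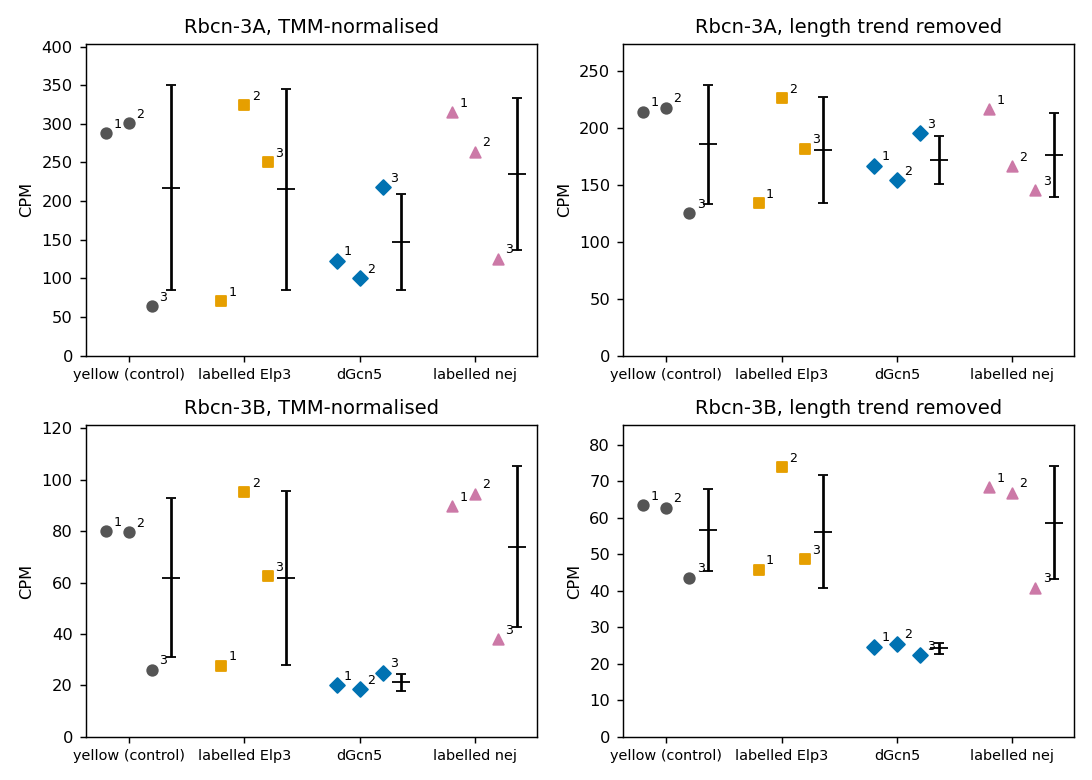
CPM of Rbcn-3A (top) and Rbcn-3B (bottom) in each library by dsRNA group, after TMM normalization (left) and with each library's trend with exon length removed (right); numbers are replicates, and the bar beside each group is its mean with SD (n = 3). The 3 dGcn5-depleted libraries lie at 18.5 to 24.95 CPM for Rbcn-3B, below the other 9, while for Rbcn-3A the groups overlap.

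Setting dGcn5-depleted against control cells, no member given a p passed the test. Most pump subunits had a slightly positive log2 fold change, which the 3 depleted libraries did not share evenly. In the 6 libraries 24 members could be tested with edgeR's quasi-likelihood test, of which 19 had a positive and 5 a negative log2 fold change. Their median was 0.19, against -0.03 over all 9820 features tested. For the 18 subunit and accessory genes above 5 RPKM the values ran from -0.05 to 0.45. Of the 23 given a p, which leaves out Rbcn-3B, none was called at an adjusted p under 0.05 (0% of all features). None of these 23 had an unadjusted p under 0.05 (3.67% of all features). DESeq2 called 0 of 30, with Rbcn-3B counted in the 30 but given no p, beside 48 of all 16202 features with counts.

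At the ends of the range, VhaAC39-2, a weakly expressed gene for subunit d with 4 to 23 counts in the depleted and 3 to 18 in the control libraries, had the highest log2 fold change, 0.81 (CI -1.16 to 2.78, edgeR adjusted p = 0.984). Without control replicate 3 it was 1.74 and without control replicate 2 it was 0.40. Rbcn-3B had the lowest, -1.54, and was the only tested member whose groups did not overlap (8.1% of all features in either direction, 3.85% with dGcn5-depleted lower). Its choice used these dGcn5-depleted libraries, so nothing is read from that. For 15 of 24 members the CI lay within a log2 change of 1 on either side of 0, and for 3 within 0.58. Changes of more than 2-fold thus lie outside the interval for most members, and smaller ones do not. With single libraries left out the median ranged from 0.13 to 0.33, the highest without dGcn5-depleted replicate 3. Summed V1 ran from 947 to 1386 RPKM in the depleted libraries against 974 to 1190 in the controls. Summed Vo ran from 856.5 to 1432 RPKM against 1007 to 1174. The depleted libraries thus reached both below and above the controls. Fewer cells with a transcript and less of it per cell cannot be told apart in such bulk libraries.

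**Figure D4:**
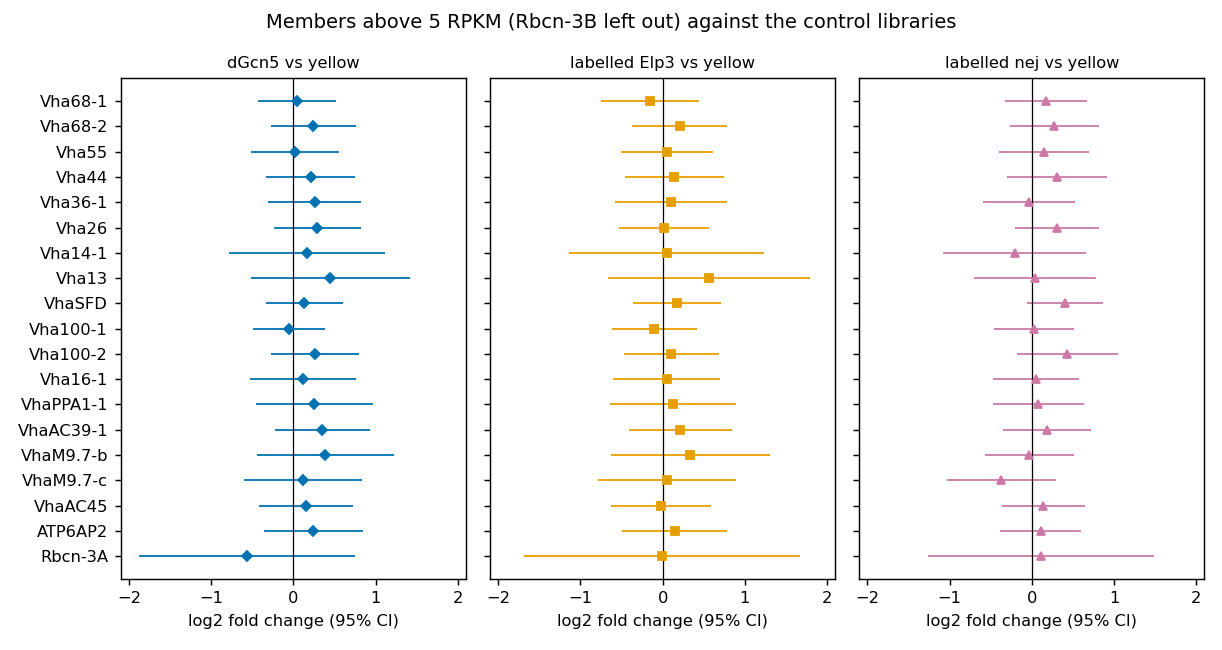
Log2 fold change against the control libraries with its 95% confidence interval (edgeR, 3 against 3 libraries) for 19 members above 5 RPKM, for dGcn5-depleted, Elp3-labelled and nej-labelled libraries; Rbcn-3B, chosen by its counts, is left out. Every interval includes 0, and that of Rbcn-3A is the widest in each panel.

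Between Elp3-labelled and control libraries no member passed the test. Of 24 tested, 18 were higher and 6 lower, with a median log2 fold change of 0.08 against -0.02 over 9915 features. edgeR called 0 members (0.0101% of all features, a single one) and DESeq2 0 of 31, beside 24 of all 16458 features with counts. None had an unadjusted p under 0.05 with edgeR (3.86% of all features) and 1 had with DESeq2. The median fell to -0.03 without Elp3-labelled replicate 1, the library with the highest value for 9 members, and rose to 0.23 without Elp3-labelled replicate 3.

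VhaAC39-2 again had the highest value, 1.67 (CI -0.31 to 3.66, adjusted p = 1), on 49, 23 and 10 counts against 7, 3 and 18. It was 0.90 without Elp3-labelled replicate 1 and 2.56 without control replicate 3. Vha68-3, a further gene for subunit A, had the lowest, -0.26 (CI -1.92 to 1.40, adjusted p = 1). Both rest on few counts, and their groups overlapped. Rbcn-3A stood at -0.01 (CI -1.68 to 1.67, adjusted p = 1) and Rbcn-3B at 0.00 (CI -1.34 to 1.35, adjusted p = 1), so that neither differed from the control beyond the spread within the groups.

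In the nej-labelled libraries several V1 and Vo genes lay above the control without passing the test. Of 23 members tested, 18 were higher and 5 lower, with a median of 0.14 against 0.01 over 9816 features. Of the 22 given a p, which leaves out Rbcn-3B, edgeR called 0 (0% of all features). None of these had an unadjusted p under 0.05 (3.65% of all features). DESeq2 called 0 of 31, with Rbcn-3B counted in the 31 but given no p, beside 38 of all 16298 features with counts. With the replicate number as a block, edgeR called 2 of all features and again no member given a p.

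In 4 of the 23, namely Vha68-2, Vha26, VhaSFD and Vha100-2, which are named after their values were seen, all 3 nej-labelled libraries were above all 3 controls, whereas 4.47% of all features showed this. VhaSFD had 196, 193 and 165 CPM against 144, 141 and 135. Vha26 had 1007, 820 and 800.5 CPM against 717, 707 and 705, and Vha68-2 487, 352 and 355 against 332, 329 and 330. Vha100-2 had 388, 249.8 and 248.5 CPM against 217, 243 and 199. The control libraries had a CV of 0.42% for Vha68-2, 0.93% for Vha26, 3.42% for VhaSFD and 10.1% for Vha100-2. Nej-labelled replicate 1 carried the largest excess in each of the 4, and without it the median of the members was 0.00.

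The ends of the range were again weak genes. Vha68-3 stood highest at 0.52 (CI -1.05 to 2.098, edgeR adjusted p = 0.968), with 45 counts in nej-labelled replicate 3 and 10 to 26 in the controls. Vha16-5, another gene for the c ring, stood lowest at -1.09 (CI -2.38 to 0.21, adjusted p = 0.968), with 32, 14 and 41 counts against 43, 82 and 81. Rbcn-3A was at 0.11 (CI -1.27 to 1.49, adjusted p = 0.985) and Rbcn-3B at 0.26, and for both the groups overlapped.

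These 3 comparisons share the control libraries, so their values are not independent of one another. Comparing the other groups directly gave no called member among those given a p either. For dGcn5-depleted against Elp3-labelled libraries, 16 of 24 members were higher and 8 lower, with a median of 0.04. The balance rested on single libraries, since without Elp3-labelled replicate 3 it was 6 higher and 19 lower (median -0.13) and without dGcn5-depleted replicate 1 it was 10 and 15 (median -0.02). The highest was Vha100-4 at 0.62 (CI -1.65 to 2.89, edgeR adjusted p = 0.9999), on 3, 12 and 48 counts against 8, 8 and 25, and it turned to -0.89 without dGcn5-depleted replicate 3. The lowest was Rbcn-3B at -1.56, the only one of the 24 without overlap (1.78% of all features lower), for which the same holds as against control. Of the 23 members given a p, which leaves out Rbcn-3B, edgeR called 0 (0.0102% of all features). None of these had an unadjusted p under 0.05 (0.981% of all features). DESeq2 called 0 of 31, with Rbcn-3B counted in the 31 but given no p, beside 6 of all 16267 features with counts.

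Against the nej-labelled libraries, 12 of 23 members were higher and 11 lower in dGcn5-depleted cells, with a median of 0.02. The highest was Vha16-5 at 0.97 (CI -0.49 to 2.42, edgeR adjusted p = 0.629), with 58, 93 and 26 counts against 32, 14 and 41. The lowest was Rbcn-3B at -1.81, by the way it was chosen, and it was the only tested member without overlap (4.92% of all features lower), from which nothing is read. Of the 22 given a p, which leaves out Rbcn-3B, edgeR called 0 (0% of all features). None of these had an unadjusted p under 0.05 (6.66% of all features). DESeq2 called 0 of 31, with Rbcn-3B counted in the 31 but given no p, beside 40 of all 16070 features with counts. With single libraries left out the median lay between -0.06 and 0.14. Taking out the length trend moved the median to 0.00, with 11 higher and 12 lower.

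In the main edgeR fits, Elp3-labelled against nej-labelled libraries had the only unadjusted p under 0.05 among the members given a p (1 of 22, beside 2.35% of all features). Rbcn-3B was not among these 22 and did not have that p. It belonged to VhaAC39-2, with 49, 23 and 10 counts against 4, 0 and 7. Its log2 fold change was 2.84, or 2.07 without Elp3-labelled replicate 1 and 3.65 without nej-labelled replicate 3. This gene passed the filter here only through the Elp3-labelled libraries, where it was high. Its p is therefore no test of a difference, and nothing is read from it. In the dGcn5 against nej and nej against control comparisons the gene did not pass. Vha16-5 also did not overlap, with 109, 74 and 42 counts in Elp3-labelled libraries (3.19% of all features higher). Vha68-3 was lowest at -0.78 (CI -2.63 to 1.07, adjusted p = 0.997), Rbcn-3A stood at -0.12 (CI -1.42 to 1.19, adjusted p = 0.997) and Rbcn-3B at -0.25. The 23 members split into 11 higher and 12 lower, with a median of -0.06 (-0.12 without Elp3-labelled replicate 1, 0.13 without Elp3-labelled replicate 3). Of the 22 given a p, edgeR called 0 (0.0102% of all features). DESeq2 called 0 of 29, with Rbcn-3B counted in the 29 but given no p, beside 19 of all 16332 features with counts.

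A single test over all 4 groups, with Rbcn-3B left out, called 0 of 24 members (0.00965% of all 10368 features), none with an unadjusted p under 0.05 (3.6% of all features) and a smallest adjusted p of 0.9999. The summed level of V1 was 1046 ± 125 RPKM in control, 1233 ± 248 in dGcn5-depleted, 1190 ± 337 in Elp3-labelled and 1155 ± 145 in nej-labelled libraries (SD, n = 3 each). For Vo the corresponding sums were 1082 ± 85.2, 1237 ± 330, 1192 ± 362 and 1131 ± 152 RPKM. Differences between the group means were smaller than the SD of at least 1 of the groups in each case, and the ratio of Vo to V1 was 1.04 ± 0.052, 0.993 ± 0.077, 0.997 ± 0.051 and 0.979 ± 0.044 in the same order.

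Genes around the pump were taken from 3 lists. Of the 23 lysosomal and organelle acidification genes outside the V-ATPase, 20 were tested in dGcn5-depleted against control cells, 10 higher and 10 lower, with a median of 0.01 and 0 called by edgeR. Hexo1, a lysosomal hexosaminidase, had the lowest p there with a log2 fold change of 0.54 (CI 0.05 to 1.03, edgeR adjusted p = 0.984), followed by Arl8, a lysosomal GTPase, at 0.44. Against the nej-labelled libraries Hexo1 stood at 1.20 (CI 0.40 to 1.995, edgeR adjusted p = 0.625) and Npc2a, a sterol carrier of the lysosome, at 0.74 (adjusted p = 0.625). In no comparison was a gene of this list called.

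The 24 genes of endosomal tethering and nutrient sensing were all tested, with 14 higher and 10 lower after dGcn5 depletion, a median of 0.09 and 0 called. Their lowest p against control belonged to mio, a subunit of the GATOR complex that acts upstream of TOR, at 0.68 in dGcn5-depleted (edgeR adjusted p = 0.984) and 0.84 in Elp3-labelled libraries (CI 0.07 to 1.60, adjusted p = 1). The 13 genes of the mitochondrial F-type ATP synthase, a related rotary enzyme that makes ATP, had a median of 0.03 in dGcn5-depleted and -0.08 in Elp3-labelled libraries. In nej-labelled libraries their median was -0.26, with 12 of 13 lower than control and 0 called, while the median of the V-ATPase members there was 0.14. The control spread was wide, as in ATPsynF, the gene with the lowest p there, at 104 ± 16.1 CPM against 155 ± 75.1 in the controls (SD). No value with the length trend removed is given for this list.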

How the data were processed

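The processed data were a single table of 12 libraries, 3 for each dsRNA. According to the methods of the study, reads were trimmed, freed of ribosomal RNA, aligned to the BDGP6.32 genome by STAR and assigned to exons by featureCounts. The authors deposited whole-number counts for each feature, with no normalization or filter. The strand setting of the counting and the use of molecular identifiers are not given in the sources used here. Libraries were grouped by their labels. The labels also list tools, such as Salmon and GATK, whose output was not used here.

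The members, the gene lists and the rule for naming genes were chosen with earlier results of these data known. The rule gave every member its level, and fold changes with errors to called members, to the highest and the lowest member of each comparison and to both Rabconnectins. Of each list up to 2 genes, those with the lowest unadjusted p-values, could be named. The marker lists for other cell types (crystal cell, lamellocyte, neuron, muscle, testis, germ line, midgut and renal) were used to check the label of the line. Their summed levels reached 1.01, 36.6, 4.39, 85.3, 2.94, 49.9 and 2.72 RPKM, carried in muscle by Mlc2 (mean 40.0), in the germ line by bam (mean 23.7) and in lamellocytes by PPO3 (mean 18.0).

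Each comparison was fitted to its 6 libraries over all features with edgeR 4.0.16 (R 4.3.3), with TMM normalization, filterByExpr at a minimum of 10 counts, no covariate and the quasi-likelihood test (two-sided). P-values were adjusted by the Benjamini-Hochberg method over all features tested, with calls under 0.05. The 95% intervals of log2 fold changes were derived from the quasi-likelihood F statistic. CPM and RPKM were computed with TMM factors over the 12 libraries and the exon lengths of the table. The length trend was the loess curve, with a span of 0.4, of each library's log2 deviation from the mean on log2 exon length. Depth was 19102102 to 23198850 counts per library. The test was checked on simulated counts.

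The alternatives were DESeq2 1.42.0, its size factors in edgeR, other filters, all 12 libraries in 1 fit, the length correction, the replicate number as a block and leaving out each library. Same-numbered libraries deviated together in all 3 pairs (correlation over 0.1) for nej and control (0.19 to 0.67), dGcn5 and Elp3 (0.26 to 0.88) and dGcn5 and nej (0.19 to 0.46). They did not for control and Elp3 (-0.72 to 0.77), control and dGcn5 (-0.14 to 0.15) or Elp3 and nej (0.03 to 0.40). Of the 18 same-numbered pairs, 13 had a correlation over 0.1 (median 0.29). Of the 36 pairs with different numbers, 13 also had one (median -0.16). Same-numbered pairs ran from -0.72 to 0.88, so these values do not settle whether the libraries were paired. Sequences of the members were not used here.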

Additional observations from a re-analysis of the deposited data

How the results depend on the processing

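No member given a p was called in any of the 84 alternative fits of the 6 comparisons. The smallest adjusted p was 0.176, with edgeR in dGcn5 against nej without dGcn5 replicate 3. In that fit 6 members given a p had an unadjusted p under 0.05, the most in any alternative. Shares of all features at that level are not given for the alternatives. Rbcn-3B was given a p only in Elp3 against yellow, so these counts say nothing about it in the other comparisons. The counts of called features moved. DESeq2 called 48 in dGcn5 against yellow, 24 in Elp3 against yellow, 38 in nej against yellow, 6 in dGcn5 against Elp3, 40 in dGcn5 against nej, 19 in Elp3 against nej and 86 over the 4 groups, against 0 or 1 with edgeR. The replicate block gave 0 in Elp3 against yellow and 2 in nej against yellow, where the fit of all 12 libraries gave 1. It changed no other call. Over the 4 groups no filter gave 3, the length correction 2 and the length correction with the replicate block 3. With single libraries left out, Elp3 against yellow, dGcn5 against Elp3 and Elp3 against nej gave 0 to 1.

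Directions turned for the log2 fold changes of both Rabconnectins, Vha68-3 and Vha100-4 in the comparisons given here. In Elp3 against yellow, Rbcn-3A moved from -0.0051 to 0.0022 with no filter, 0.0043 with a minimum of 10 counts in each library and 0.018 with the replicate block. Rbcn-3B there moved from 0.0037 to -0.0074 with size factors, -0.00016 with the replicate block, -0.012 with the length correction and replicate block, -0.015 with DESeq2 and -0.0035 in the fit of all 12. Rbcn-3A turned to -0.065 (length correction) and -0.047 (with the block too) in nej against yellow, and to 0.052 and 0.044 in Elp3 against nej. With single libraries left out, Rbcn-3A ranged from -0.44 to 0.43 in Elp3 against yellow, -0.33 to 0.41 in nej against yellow and -0.54 to 0.31 in Elp3 against nej. Rbcn-3B ranged from -0.44 to 0.37, from -0.11 to 0.57 and from -0.71 to 0.11 in the same comparisons, and Vha68-3 from -0.59 to 0.26, from -0.27 to 0.85 and from -1.11 to 0.0269. Vha100-4 ranged from -0.89 to 1.35 in dGcn5 against Elp3. For Rbcn-3B, whose sign in the dGcn5 comparisons follows from its choice, the length correction with the replicate block gave -1.235 against nej. The cause of these moves was not tested. Where a group was left with 2 libraries, edgeR's pooled spread was used.

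With 3 libraries a group, half-widths of the 95% intervals had medians of 0.55 to 0.74 over the members tested, so that modest log2 changes could not be shown. The libraries' length trend acts most on the shortest and longest members. Members at 0 counts are not detectable at this depth.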
